A study of Homo sapiens with 15 samples.

Results

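SK-N-AS and BE(2)-C are established human neuroblastoma cell lines, and their total RNA was compared here gene by gene. The comparison used the 3 arrays labelled SK-N-AS and the 3 labelled BE(2)-C, which are 6 of the 15 arrays of a series that holds 5 such lines (the others are SH-SY5Y, NGP and KELLY). SK-N-AS has no MYCN amplification and BE(2)-C carries one. This is general knowledge of the lines and is not stated in the labels. BE(2)-C is a clonal line derived from SK-N-BE(2), so each side of the comparison is 1 cell line and the arrays are not independent tumours. Both lines were grown untreated in DMEM with 10% fetal bovine serum, and no other agent or genotype is labelled. Of the 18244 genes on the array, 12721 had a level at or above the filter (a highest line mean of at least 80.6 intensity units) and were tested. A difference is always SK-N-AS minus BE(2)-C on the log2(intensity + 1) scale, so a value of 1 is a doubling.

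Relative to spiked-in controls, the RNA level was slightly higher in SK-N-AS. ERCC transcripts were added at lysis, after the cells had been counted. The median tested gene stood -0.09 ± 0.09 log2 units from the median of 33 ERCC probe sets in SK-N-AS and -0.39 ± 0.08 in BE(2)-C (SD, n = 3 each). The difference of 0.30 corresponds to 1.23-fold, and the exact two-sided permutation p was 0.1, the smallest that 3 against 3 arrays allow, so the arrays of the lines did not overlap. The pair was taken with its near-equal level by this measure already known, so the p is descriptive. The size of the difference depended on the ERCC probe sets used, as given at the end. Over all probe sets the array median averaged 123 ± 3.23 units in SK-N-AS and 103 ± 0.379 units in BE(2)-C. Arrays of one line correlated at 0.996 or above and arrays of different lines at 0.782 to 0.785 (Pearson, over the tested genes), and 0 pairs were identical. The 3' minus 5' difference of the ACTB control probe sets, a sign of RNA integrity, was 0.71 ± 0.06 in SK-N-AS and 0.97 ± 0.07 in BE(2)-C. Its part in the differences below was not tested. The labels do not say that the 3 arrays of a line came from separate cultures, so the p-values measure only the spread between these arrays, which may be technical.

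Neuroblastoma arises from the sympathetic branch of the neural crest. Many neuroblastoma cells keep an adrenergic state, with the transcription factors, catecholamine enzymes and secretory granules of a sympathetic neuroblast. Others take a mesenchymal state, with matrix, adhesion and contractile genes, and the same tumour can hold both. MYCN, when amplified, drives growth and is a marker of high risk, while some tumours without the amplification express its relative MYC.

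The lines differed at 25.1% of the genes. With each array centred on its median gene, 1592 genes were called higher in SK-N-AS (12.5% of those tested) and 1595 lower (12.5%), at a Benjamini-Hochberg adjusted p under 0.05 and at least 2-fold in limma. By the adjusted p alone, with no limit on the fold, 4439 were higher (34.9%) and 5128 lower (40.3%). List counts at an unadjusted p under 0.05, given below, are to be read against these shares, which an unadjusted p can only raise. Every gene with a difference of at least 2-fold passed the adjusted p, so the fold limit alone set which genes were called. The arrays of the lines did not overlap for 1592 of the 1592 genes called higher and 1594 of the 1595 called lower, against 78.6% of all genes tested. A difference of at least 8-fold was reached by 356 higher genes (2.8%) and 284 lower ones (2.23%). On the deposited scale, without centring, every difference lay 0.20 higher on the log2 scale, which gave 2009 higher calls (15.8%) and 1245 lower ones (9.79%). The higher share of all calls was thus 61.7% instead of 50%, and 66.6% with the arrays centred on the ERCC probe sets. All 1592 higher calls and 1245 of the 1595 lower calls held on both the centred and the deposited scale. In 683 of the genes called higher the BE(2)-C mean lay below the filter, as did the SK-N-AS mean in 586 of those called lower. A fold against such a dim level is limited by the background of the array.

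**Figure D1:**
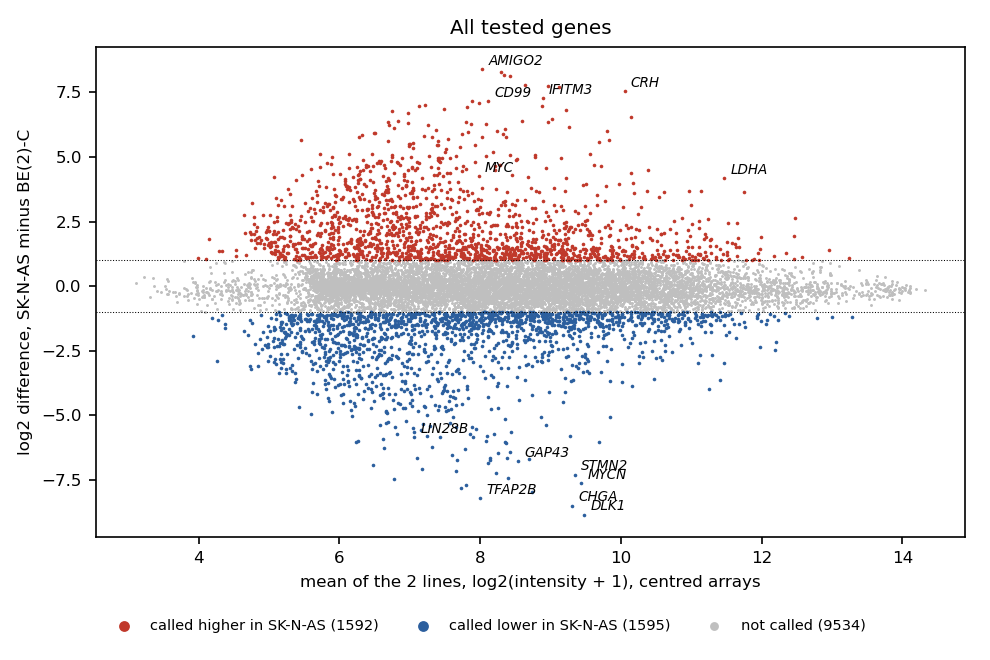
Log2 difference (SK-N-AS minus BE(2)-C, centred arrays) of each tested gene against its mean level in the 2 lines. Red points are the 1592 genes called higher in SK-N-AS, blue points the 1595 called lower and grey points the genes that were not called, with dotted lines at a 2-fold difference in either direction.

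The MYC family showed opposite levels in the lines. MYCN had 76.0, 74.4 and 86.0 in SK-N-AS, against 13184, 13649 and 14233 in BE(2)-C, a log2 difference of -7.63 ± 0.12 (SE), seen in 4 of 4 probe sets. MYC, its paralog, had 1786, 1661 and 1917 in SK-N-AS, against 92.1, 67.2 and 83.9 in BE(2)-C, a difference of 4.26 ± 0.10 on its single probe set. The lowest array of the higher line stood far above the highest array of the other for both genes. MAX, the partner that both proteins need to bind DNA, averaged 1747 ± 110.1 in SK-N-AS and 1474 ± 121 in BE(2)-C (SD, n = 3 each), a difference of 0.05 ± 0.05. MYCL differed by 0.11 ± 0.11 and neither was called. Of the 13 MYC network genes tested, 1 was called higher and 1 lower. MLXIP, a glucose-sensing member of the wider network, differed by 0.95 ± 0.06 and was called on the deposited scale but not on centred arrays. Among 16 tested genes listed as neighbours of MYCN, 0 were called higher and 4 lower in limma (0 higher and 12 lower at an unadjusted p under 0.05). Besides MYCN these were GREB1 (-2.94 ± 0.13, 1 of 3 probe sets), the pseudokinase gene TRIB2 (-1.37 ± 0.06) and the RNA helicase gene DDX1, which is often co-amplified with MYCN. DDX1 had 2307, 3193 and 3123 in SK-N-AS, against 5737, 4656 and 4559 in BE(2)-C, a difference at the 2-fold limit that was not called on the deposited scale.

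On the probe set that stood for each gene, the genes with the greatest differences in the lower direction included many of the sympathetic neuroblast. DLK1, a membrane protein of progenitor and chromaffin cells, had 54.0, 49.2 and 54.7 in SK-N-AS, against 21462, 21639 and 21328 in BE(2)-C. Chromogranin A, CHGA, the core protein of catecholamine granules, had 50.1, 47.2 and 62.7 in SK-N-AS, against 17372, 17488 and 16054 in BE(2)-C. TFAP2B, a transcription factor of sympathetic development, had 25.9, 17.8 and 26.4 in SK-N-AS, against 6207, 6157 and 6214 in BE(2)-C. The differences were -8.85 ± 0.05, -8.50 ± 0.06 and -8.21 ± 0.11. For all 3 genes the SK-N-AS arrays lay below the filter and the BE(2)-C arrays were bright. The other 17 of the 20 most lowered genes, all with SEs of at most 0.13 and adjusted p of at most 4.1e-18, included the neuronal genes NSG2, NRCAM, MAP2, SCG3, CHGB, STMN2, ELAVL4, INSM2, GAP43 and DDC. They also included MYCN, the glycosyltransferase genes B3GALNT1 and GALNT14, the complement gene C7, the estrogen-related genes RERG and ESRRG, and PPP1R16B.

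The genes with the greatest differences in the higher direction were of several kinds. AMIGO2, an adhesion protein, had 7747, 7479.7 and 8049 in SK-N-AS, against 18.1, 18.1 and 21.0 in BE(2)-C. CEBPD, a transcription factor induced in inflammation, had 9311, 8247 and 9579 in SK-N-AS, against 20.4, 26.1 and 25.4 in BE(2)-C. ANXA1, a calcium-dependent phospholipid-binding protein, had 8721, 8707 and 9265 in SK-N-AS, against 22.4, 28.2 and 26.7 in BE(2)-C. These are differences of 8.40 ± 0.16, 8.31 ± 0.09 and 8.18 ± 0.11, with each SK-N-AS array bright and each BE(2)-C array below the filter. The other 17 of the 20 ranged down to 6.68 ± 0.14 for AIM2, a cytosolic DNA sensor, with SEs of at most 0.22 and adjusted p of at most 8.48e-15. Among them were IFI16 and IFITM3 of the interferon response, CD99, the pentraxin PTX3, the basement membrane protein nidogen-1 (NID1), keratin 18 (KRT18), the imprinted gene MEST and the melanosomal enzyme gene TYRP1. CRH, the hypothalamic hormone that releases corticotropin, had 24460.3, 21459 and 24966 in SK-N-AS, against 108, 116 and 100.0 in BE(2)-C. The list was completed by SEL1L3, TM4SF4, TM4SF1, BNC1, SERPINB1, GDF6 and the adhesion receptor gene ADGRG6. For these 40 genes the arrays of the lines did not overlap, as for 78.6% of all genes tested. All 40 stayed called under every processing alternative that tested them, which follows from differences so far above the 2-fold limit.

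**Figure D2:**
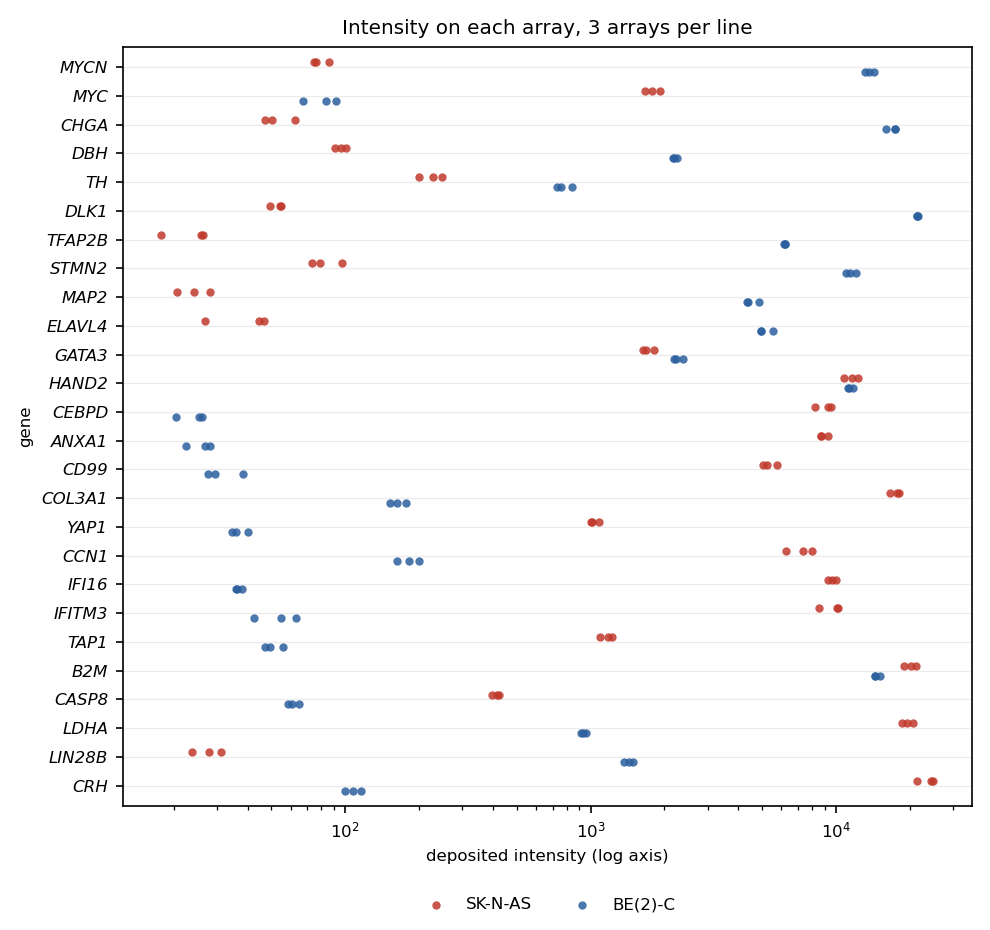
Deposited intensity on a log axis for named genes on each of the 3 SK-N-AS arrays (red, upper row of each gene) and the 3 BE(2)-C arrays (blue, lower row). Replicate arrays lie close together, HAND2 is nearly level between the lines, and MYCN and MYC are displaced in opposite directions.

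Of the defining markers of the sympathetic neuroblast, 2 were high in both lines and the rest were lower in SK-N-AS. HAND2, an early factor of that lineage, averaged 11583 ± 772 in SK-N-AS and 11404 ± 309 in BE(2)-C, a difference of -0.18 ± 0.04. GATA3, its companion factor, averaged 1710.0 ± 89.7 in SK-N-AS and 2267 ± 111 in BE(2)-C (-0.61 ± 0.05), and neither was called. The other defining markers measured were all called lower. The homeodomain factor PHOX2A had 282, 307 and 317 in SK-N-AS, against 2556, 2308 and 2404 in BE(2)-C (-3.20 ± 0.06). ISL1 had 410.2, 436 and 477 in SK-N-AS, against 3042, 2807 and 2659 in BE(2)-C (-2.88 ± 0.05), and the neural adhesion gene NCAM1 averaged 446 ± 29.9 in SK-N-AS and 2744 ± 187 in BE(2)-C (-2.82 ± 0.05, 4 of 6 probe sets). The arrays of the lines did not overlap for any of these 3, as for 78.6% of all genes tested. Of 20 adrenergic transcription factor genes tested, 2 were called higher and 13 lower, with a median difference of -2.07 against -0.05 over all genes. Besides TFAP2B, the lower ones were led by INSM2 (-6.84 ± 0.09), SIX3 (-3.80 ± 0.18) and the chromatin organiser SATB1 (-3.37 ± 0.12). TWIST1, a basic helix-loop-helix factor, had 797, 967 and 915 in SK-N-AS, against 5703, 5290.3 and 4960.0 in BE(2)-C. The 2 adrenergic list members called higher were SOX11, with 767, 757 and 693 in SK-N-AS, against 45.2, 42.3 and 70.9 in BE(2)-C (3.62 ± 0.14), and TBX2 (1.35 ± 0.06).

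Catecholamine genes were lower in SK-N-AS from synthesis to storage, and 1 breakdown gene was higher. Of 15 tested, 11 were called lower and 1 higher, with a median difference of -1.98. Tyrosine hydroxylase, TH, the first step, had 228, 249 and 199 in SK-N-AS, against 842, 730.1 and 754 in BE(2)-C, a difference of -1.98 ± 0.12. Its other probe sets gave greater differences, -2.93 and -4.19. On the last of these TH averaged 36.9 in SK-N-AS, below the filter, and 601 in BE(2)-C, so its level in SK-N-AS is uncertain. Dopamine beta-hydroxylase, DBH, which makes noradrenaline, had 91.0, 101 and 96.5 in SK-N-AS, against 2249.8, 2196 and 2164 in BE(2)-C (-4.71 ± 0.06). The noradrenaline transporter gene SLC6A2, through which the imaging agent MIBG enters cells, had 47.2, 55.2 and 49.1 in SK-N-AS, against 2479, 2330.0 and 2337 in BE(2)-C (-5.74 ± 0.08). In each case every SK-N-AS array was below every BE(2)-C array, and 78.6% of all genes tested had no overlap in either direction. The decarboxylase gene DDC differed by -6.68 ± 0.06, although only 1 of its 3 probe sets was called. The vesicle transporter SLC18A1 and the granule cytochrome CYB561 differed by -3.99 ± 0.08 and -2.47 ± 0.06. MAOA, a monoamine oxidase that degrades catecholamines, had 3235, 3051 and 3319 in SK-N-AS, against 86.1, 90.4 and 71.4 in BE(2)-C, a difference of 5.06 ± 0.07 in 4 of 4 probe sets. Its paralog MAOB lay below the filter in both lines, so it could not be compared.

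Granule protein genes were mostly lower as well. Of 21 tested, 14 were called lower and 4 higher (median -2.10). After CHGA, the greatest decreases were those of secretogranin III, SCG3 (-7.45 ± 0.11), chromogranin B, CHGB (-7.44 ± 0.06), neuropeptide Y, NPY (-5.36 ± 0.05), and the chaperone SCG5 (-3.86 ± 0.09). The 4 called higher were the prohormone-processing enzymes CPE, which averaged 630.1 ± 9.30 in SK-N-AS and 84.8 ± 3.34 in BE(2)-C, and PAM, which averaged 8632 ± 295 in SK-N-AS and 1295 ± 27.2 in BE(2)-C, the synaptotagmin gene SYT4 (2.03 ± 0.09) and the neuropeptide VIP. VIP had 21007, 19636 and 21935 in SK-N-AS, against 7329.7, 6804 and 6729 in BE(2)-C, so both lines expressed it strongly and SK-N-AS was 2.61-fold higher. Of 32 neuronal cytoskeleton, growth cone and RNA-binding genes, 0 were called higher and 23 lower (median -1.55), and 0 were higher and 29 lower at an unadjusted p under 0.05. MAP2, a dendritic microtubule protein, had 28.2, 24.3 and 20.6 in SK-N-AS, against 4837, 4364 and 4358 in BE(2)-C. STMN2, a growth cone protein that loosens microtubules, had 73.5, 97.3 and 79.0 in SK-N-AS, against 12058, 11374 and 10973 in BE(2)-C. Its difference was -7.30 on this probe set and -9.03, -9.08 and -9.07 on its others, beyond that of DLK1 (-8.85). The order of the greatest differences thus depends on the probe set taken. ELAVL4, a neuronal RNA-binding protein, had 46.6, 26.9 and 44.7 in SK-N-AS, against 5556, 4954 and 4934 in BE(2)-C. GAP43 and doublecortin, DCX, differed by -6.77 ± 0.10 and -6.54 ± 0.11. REST, a repressor of neuronal genes that was chosen after its values were seen, averaged 206 ± 25.2 in SK-N-AS and 76.2 ± 3.29 in BE(2)-C (1.22 ± 0.13) and was called higher.

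CHGA and VGF, another granule peptide called lower (-2.54 ± 0.07), were the 2 of 17 granule genes with a RefSeq promoter whose 250 bases before the start held the cAMP response element TGACGTCA (a palindrome, so both strands read alike). It was present in 2.88% of the 10408 tested genes with a promoter, 2.08% of those called higher and 3.28% of those called lower. The promoters are shown because CHGA had the greatest difference of the granule genes. They are chr14:92922900-92923149 (plus strand) and chr7:101165570-101165819 (minus strand) of RefSeq GRCh38.p14, 5' to 3', with the element in capitals.
CHGA: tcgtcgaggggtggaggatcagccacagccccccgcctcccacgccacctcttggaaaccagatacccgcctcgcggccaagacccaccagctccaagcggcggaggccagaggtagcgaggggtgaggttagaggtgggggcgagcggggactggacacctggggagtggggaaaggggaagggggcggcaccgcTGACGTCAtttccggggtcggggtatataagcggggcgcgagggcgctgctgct
VGF: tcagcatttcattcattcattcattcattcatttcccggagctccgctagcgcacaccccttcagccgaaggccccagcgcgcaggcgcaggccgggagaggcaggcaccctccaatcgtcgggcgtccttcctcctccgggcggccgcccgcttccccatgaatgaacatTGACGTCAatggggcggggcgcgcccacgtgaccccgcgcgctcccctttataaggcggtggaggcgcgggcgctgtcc

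Neural adhesion genes were mostly lower and integrin genes mostly higher. Of 20 cadherin and neural adhesion genes, 12 were called lower and 2 higher (median -2.33). L1CAM, which guides axons, had 254, 244 and 269 in SK-N-AS, against 7941, 7325 and 7144 in BE(2)-C (-5.06 ± 0.05). NRCAM, CADM1, CNTN1 and PCDH17 differed by -7.81 ± 0.07, -6.02 ± 0.09, -5.41 ± 0.12 and -4.26 ± 0.10. CD44, the receptor for hyaluronan, had 5679, 5597 and 6031 in SK-N-AS, against 52.1, 66.0 and 57.7 in BE(2)-C (6.40 ± 0.12), with 10 of 10 probe sets called. CNTNAP2 was the other gene called higher (3.71 ± 0.17). N-cadherin, CDH2, averaged 4564 ± 397 in SK-N-AS and 3956 ± 132 in BE(2)-C and was level (0.00 ± 0.07). Of 15 integrin genes, 8 were called higher and 1 lower. The collagen-binding subunit ITGA2 had 1502, 1457 and 1689 in SK-N-AS, against 45.2, 40.9 and 40.2 in BE(2)-C (4.97 ± 0.11). ITGA9 went the other way, with 15.7, 11.4 and 15.5 in SK-N-AS, against 930.0, 788 and 844 in BE(2)-C (-6.02 ± 0.14). ITGA3, ITGA4, ITGA7 and ITGAV ranged from 2.23 to 3.76, all called higher.

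Matrix genes were mostly higher. Of 32 fibrillar and basement membrane genes, 20 were called higher and 3 lower (median 1.73). Collagen III, COL3A1, had 18074, 16686 and 17819 in SK-N-AS, against 177, 153 and 162 in BE(2)-C (6.53 ± 0.11). NID1, COL6A3, the collagen-crosslinking enzyme LOXL2 and the lysyl hydroxylase PLOD2 differed by 6.95 ± 0.19, 5.89 ± 0.07, 4.82 ± 0.12 and 4.77 ± 0.14. The 3 called lower were fibrillin-1, FBN1 (-4.19 ± 0.07), LAMA4 (-2.94 ± 0.10) and biglycan, BGN (-1.14 ± 0.06), the last not called on the deposited scale. Among 16 matrix proteases and inhibitors, 7 were called higher and 3 lower. The urokinase gene PLAU averaged 769.7 ± 26.9 in SK-N-AS and 44.3 ± 3.36 in BE(2)-C (3.89 ± 0.11) and its receptor PLAUR differed by 3.07 ± 0.10. The inhibitor TIMP1 had 12064, 10643 and 12222 in SK-N-AS, against 815, 775 and 772 in BE(2)-C (3.68 ± 0.06), and the protease ADAMTS1 was lower (-2.44 ± 0.07).

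Mesenchymal transcription factor genes were higher in part. Of 27 tested, 12 were called higher, 3 lower and 12 were not called, with a median of 0.77. NR3C1, the glucocorticoid receptor, had 1281, 1268 and 1451 in SK-N-AS, against 50.6, 52.6 and 41.4 in BE(2)-C (4.56 ± 0.09, 10 of 10 probe sets). TBX18, TWIST2 and PRRX1, factors of mesenchyme, differed by 4.33 ± 0.13, 4.01 ± 0.18 and 3.56 ± 0.12. BHLHE41 differed by 4.07 ± 0.13, in 1 of its 3 probe sets. Against this direction, ZEB1, a repressor of epithelial genes, averaged 1124 ± 58.7 in SK-N-AS and 2416 ± 80.0 in BE(2)-C (-1.31 ± 0.05, 7 of 7 probe sets). EGR3 was lower in 1 of 4 probe sets (-2.31 ± 0.08), and JUN (-1.11 ± 0.05) was called lower on centred arrays but not on the deposited scale. TWIST1 and TWIST2, close paralogs, therefore differed in opposite directions.

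Annexin, actin and filament genes were also more often higher than lower. Of 17 annexin and S100 genes, 11 were called higher and 1 lower (median 2.30), led after ANXA1 by S100A3 (4.79 ± 0.10), S100A16 (4.70 ± 0.10), S100A13 (3.81 ± 0.07) and ANXA4 (3.77 ± 0.09). The exception, S100B, averaged 49.5 ± 3.68 in SK-N-AS and 269 ± 15.4 in BE(2)-C. Of 31 actin and focal adhesion genes, 14 were called higher and 1 lower (LIMA1, -1.01 ± 0.07, not called on the deposited scale). The focal adhesion protein TES, the membrane proteins EMP1 and MYOF, tropomyosin TPM2 and caveolin CAV2 differed by 5.32 ± 0.17, 4.96 ± 0.12, 4.95 ± 0.15, 4.25 ± 0.10 and 3.23 ± 0.17. Of 10 non-neuronal intermediate filament genes, 5 were called higher and 1 lower. Keratin 18, a filament of simple epithelia, had 8729, 8043 and 9035 in SK-N-AS, against 57.6, 58.2 and 58.4 in BE(2)-C. Its partner KRT8 differed by 4.37 ± 0.14, the least of its 8 probe sets, which were all called higher and reached 7.09. Vimentin, VIM, had 17930.1, 16569.9 and 18883 in SK-N-AS, against 4091, 4125 and 3939 in BE(2)-C (1.93 ± 0.08). KRT19 ran against them (-1.95 ± 0.08).

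YAP1 and genes around it were higher in SK-N-AS. YAP1 is a coactivator that the Hippo kinases restrain and that acts on DNA through TEAD factors. It had 1017, 1001 and 1078 in SK-N-AS, against 40.0, 34.5 and 35.9 in BE(2)-C (4.57 ± 0.12, 8 of 8 probe sets), below the filter on every BE(2)-C array. Of 21 pathway and target genes tested, 14 were called higher and 1 lower (median 1.35). Its target CCN1 had 6283, 8007 and 7366 in SK-N-AS, against 199, 163 and 182 in BE(2)-C (5.10 ± 0.11). The related target CCN2 had 749, 860.3 and 844 in SK-N-AS, against 37.8, 38.4 and 43.2 in BE(2)-C (4.13 ± 0.12). Each SK-N-AS array was above each BE(2)-C array for all 3 genes, while 78.6% of all genes tested had no overlap in either direction. LATS2, a kinase that restrains YAP1 and is also one of its targets, differed by 5.11 ± 0.13 and TEAD2 by 3.31 ± 0.10. AMOTL1, an adaptor that holds YAP1 in the cytoplasm, was lower (-1.75 ± 0.08). The TEAD-binding M-CAT core GGAATG, on either strand, was present in the 250 bases before the start of 3 of 16 list members with a promoter (YAP1, CCN2 and ANKRD1). All tested genes held it in 9.19%, those called higher in 11.9% and those called lower in 7.9%. It was no rarer in the interferon list, where 6 of 26 members held it, so the match is not particular to the YAP1 list. The CCN2 promoter held 3 copies and is printed as chr6:131951373-131951622 (minus strand), with the copies in capitals.
CCN2: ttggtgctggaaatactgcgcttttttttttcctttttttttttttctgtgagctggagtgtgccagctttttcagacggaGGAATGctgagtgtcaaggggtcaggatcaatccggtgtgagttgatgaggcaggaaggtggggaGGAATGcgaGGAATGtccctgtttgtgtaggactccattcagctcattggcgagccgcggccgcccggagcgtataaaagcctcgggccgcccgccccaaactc

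Interferon response genes were called in 1 direction only. Interferons signal through STAT and IRF factors, which bind interferon-stimulated response elements and raise antiviral and antigen presentation genes. Of 33 tested, 20 were called higher and 0 lower (median 1.67), and 24 were higher and 6 lower at an unadjusted p under 0.05 in limma. IFI16, a nuclear DNA sensor, had 9646, 9243 and 10004 in SK-N-AS, against 37.8, 36.1 and 35.9 in BE(2)-C (7.80 ± 0.15). IFITM3, which blocks virus entry at the endosome, had 10066, 8553 and 10167 in SK-N-AS, against 42.3, 54.8 and 62.8 in BE(2)-C (7.28 ± 0.15). BST2, the tetherin that holds virus particles at the membrane, had 7971, 7367 and 8294 in SK-N-AS, against 80.0, 80.1 and 71.4 in BE(2)-C (6.45 ± 0.12). No array of SK-N-AS overlapped one of BE(2)-C for these 3, as for 78.6% of all genes tested. IFITM2 and IFI44 differed by 5.60 ± 0.09 and 4.49 ± 0.14. IFITM1, IFITM2 and IFITM3 are near-identical paralogs, so their probe sets may share signal. The 13 members that were not called lay between -0.79 and 0.93. They included OAS1, OAS2 and OAS3, antiviral enzymes that also respond to interferon, at -0.10, -0.41 and -0.44 (chosen after their values were seen).

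Antigen presentation genes went with them. Of 20 genes of MHC class I processing, 12 were called higher and 0 lower (median 1.46), and 15 were higher and 2 lower at an unadjusted p under 0.05. The immunoproteasome subunit gene PSMB9 had 1850.2, 1874 and 2000.1 in SK-N-AS, against 31.3, 34.4 and 33.9 in BE(2)-C (5.60 ± 0.13). Its companion PSMB8 had 3251, 3031 and 3309.7 in SK-N-AS, against 90.4, 98.0 and 93.3 in BE(2)-C (4.87 ± 0.13). The peptide transporter TAP1 had 1096, 1179.8 and 1221 in SK-N-AS, against 49.5, 55.8 and 47.1 in BE(2)-C (4.30 ± 0.13). HLA-B and HLA-C differed by 3.68 ± 0.06 and 3.29 ± 0.09, with 1 of 3 HLA-C probe sets called in the opposite direction. These class I genes are near-identical and polymorphic, so their levels are uncertain. B2M, the invariant light chain, averaged 20148 ± 1069 in SK-N-AS and 14678 ± 364 in BE(2)-C, a difference of 0.25 ± 0.04 that was not called. The light chain was thus high in both lines, while PSMB9 and TAP1 lay below the filter in BE(2)-C.

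The interferon-stimulated response element core, written GAAA, any 2 bases, GAAA and searched on both strands, was present in the 250 bases before the start of 14 of 26 interferon list members and 7 of 17 MHC list members with a RefSeq promoter. Over all 10408 tested genes with a promoter the share was 2.18%, over the genes called higher 4.16% and over those called lower 1.56%. Of the 14, 10 were called higher. The 4 that were not called were IFI6, IFIT5, OAS3 and MYD88. Among the MHC genes, TAP1, TAP2, TAPBP and PSME2 held a match and were called higher, and HLA-F, B2M and PSMB10 held one and were not called. A match is a description of these letters only. The E-box CACGTG, a palindrome that MYC and MYCN bind with MAX, was present in 8.95% of the tested genes with a promoter, in 7.51% of those called higher and in 7.9% of those called lower. The AP-1 site TGANTCA, on either strand, was present in 3.78%, 6.63% and 2.89% of the same sets. The 4 called members with a match and the greatest differences are printed in RefSeq GRCh38.p14, 5' to 3', with the core in capitals (its reverse complement in IFI44 and TAP1, and overlapping copies run together in BST2 and TAP1). They are IFITM3 at chr11:320861-321110 (minus), BST2 at chr19:17405631-17405880 (minus), IFI44 at chr1:78649539-78649788 (plus) and TAP1 at chr6:32853705-32853954 (minus).
IFITM3: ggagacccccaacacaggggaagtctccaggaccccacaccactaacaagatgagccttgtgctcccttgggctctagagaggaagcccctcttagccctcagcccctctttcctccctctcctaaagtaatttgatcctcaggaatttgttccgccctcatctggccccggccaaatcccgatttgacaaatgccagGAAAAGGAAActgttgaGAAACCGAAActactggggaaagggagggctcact
BST2: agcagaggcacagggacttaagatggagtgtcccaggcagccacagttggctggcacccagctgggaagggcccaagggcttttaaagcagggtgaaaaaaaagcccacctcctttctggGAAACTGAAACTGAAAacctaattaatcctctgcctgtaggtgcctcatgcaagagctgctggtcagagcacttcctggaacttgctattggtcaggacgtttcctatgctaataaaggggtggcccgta
IFI44: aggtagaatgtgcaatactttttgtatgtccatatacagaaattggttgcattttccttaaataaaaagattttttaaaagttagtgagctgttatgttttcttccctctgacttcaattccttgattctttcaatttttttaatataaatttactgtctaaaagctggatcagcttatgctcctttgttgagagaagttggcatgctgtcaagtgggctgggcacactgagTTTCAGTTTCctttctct
TAP1: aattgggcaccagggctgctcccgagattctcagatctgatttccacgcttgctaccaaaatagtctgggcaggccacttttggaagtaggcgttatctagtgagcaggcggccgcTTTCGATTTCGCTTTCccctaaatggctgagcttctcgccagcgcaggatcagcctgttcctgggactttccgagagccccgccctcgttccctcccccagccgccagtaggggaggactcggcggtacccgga

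Cytokine and death receptor genes were also mostly higher. Of 24 NF-kB, cytokine and chemokine genes, 16 were called higher and 1 lower (median 1.67). The neutrophil chemokine CXCL8 had 3167, 3139.6 and 3564 in SK-N-AS, against 31.0, 34.9 and 35.1 in BE(2)-C (6.37 ± 0.12). CXCL2, the NF-kB cofactor NFKBIZ, LIF and IL1B differed by 5.52 ± 0.16, 4.67 ± 0.06, 4.04 ± 0.11 and 3.42 ± 0.10, and CXCR4, a chemokine receptor, was lower (-1.31 ± 0.08). Of 18 death receptor and caspase genes, 11 were called higher and 1 lower (median 1.64). TNFRSF10B, a receptor for TRAIL, had 3799.6, 3799 and 4024 in SK-N-AS, against 141, 137 and 140.3 in BE(2)-C (4.59 ± 0.05), and TRAIL itself, TNFSF10, differed by 3.01 ± 0.15. CASP8, the caspase these receptors recruit and one often silenced in neuroblastoma, had 397, 416 and 422 in SK-N-AS, against 58.5, 60.9 and 64.6 in BE(2)-C (2.53 ± 0.09, 6 of 8 probe sets). Every SK-N-AS array was above every BE(2)-C array for both genes, and 78.6% of all genes tested had no overlap in either direction. CASP6 differed by 4.53 ± 0.09 and TNFRSF1A by 2.61 ± 0.12. BID, which links caspase-8 to the mitochondria, was lower (-1.66 ± 0.06). In the BCL2 family of 16, 1 was called higher (BIK, 1.38 ± 0.15) and 4 lower, of which only BID kept its call on the deposited scale.

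Markers of other cell types moved with these groups in part. The leukocyte list had 9 genes on the array, and its summed intensity was 1175 to 1289 in SK-N-AS and 390.4 to 439 in BE(2)-C. PTPRC, the leukocyte phosphatase CD45, averaged 320.0 ± 24.6 in SK-N-AS and 13.01 ± 1.19 in BE(2)-C and CD68 averaged 592 ± 36.3 in SK-N-AS and 61.0 ± 8.57 in BE(2)-C, while CD3E averaged 48.1 and 42.2, LYZ 17.7 and 25.4 and SPI1 46.4 and 37.1, all below the filter in both lines. The epithelial list of 10 summed to 10654 to 11792 in SK-N-AS and 840.8 to 883 in BE(2)-C, with KRT18, KRT8 and claudin-4, CLDN4 (2.50 ± 0.07), called higher. EPCAM averaged 16.8 and 51.2, and CDH1 34.5 and 29.0, again below the filter. Of the 12 fibroblast and muscle genes, 8 were tested and 5 called higher. Their sum was 25661 to 27177 in SK-N-AS and 2638 to 2825 in BE(2)-C, led by COL3A1 in SK-N-AS, while COL1A2 averaged 41.9 and 39.8, and MYOD1 44.8 and 42.2. The 10 endothelial genes summed to 603 to 698 in SK-N-AS and 844 to 854 in BE(2)-C, with CDH5 lower (-2.62 ± 0.13), and the 7 Schwann cell and glia genes to 539.8 to 545 and 627 to 689. The array gives no 0, and 0 of the listed markers was at 0. A part of other cells in the results was not tested.

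**Figure D3:**
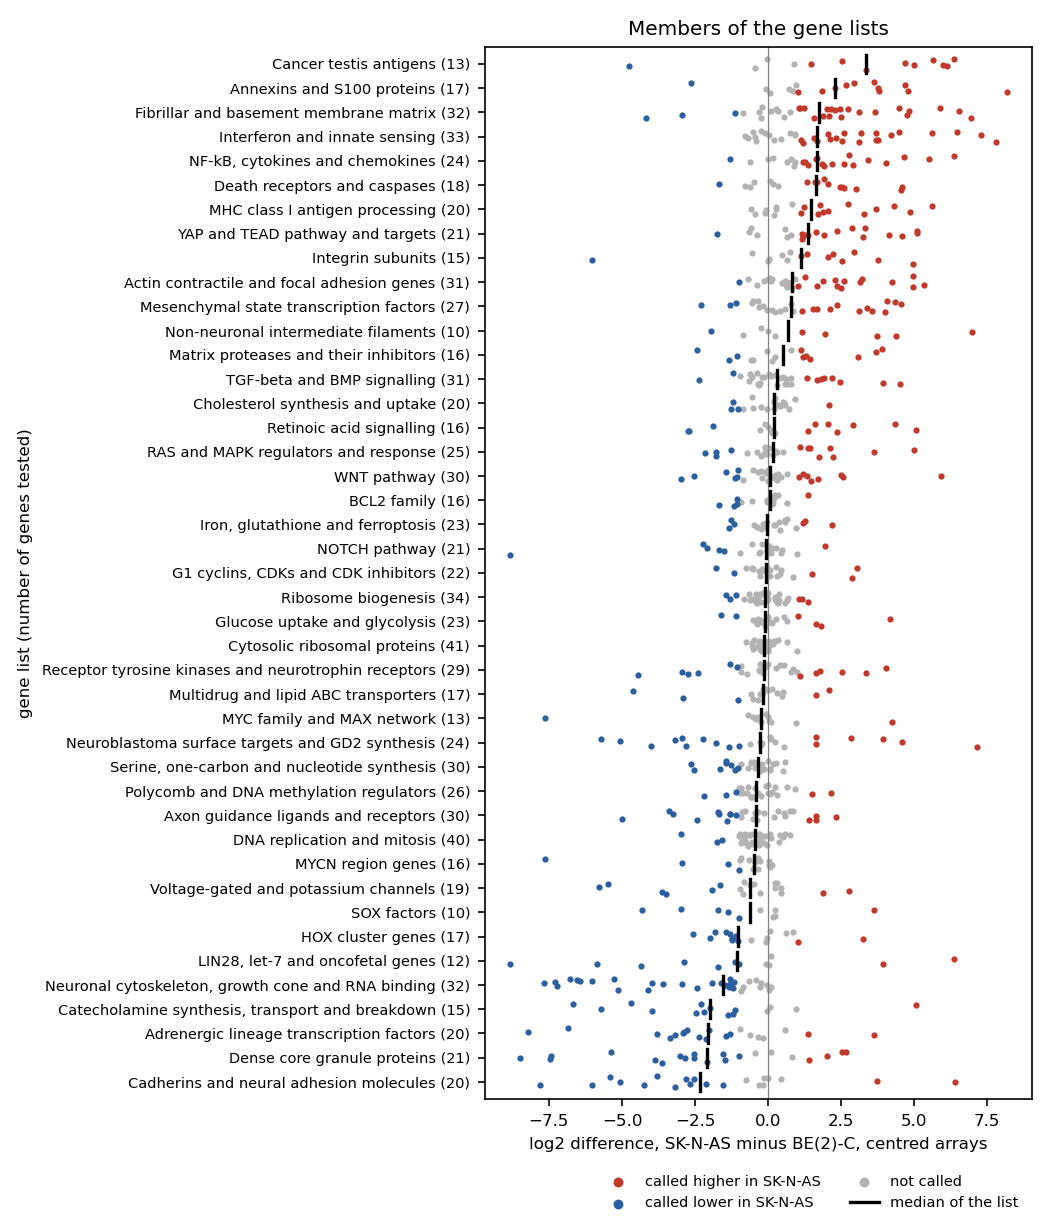
Log2 difference (SK-N-AS minus BE(2)-C, centred arrays) of each tested member of the gene lists with at least 10 tested genes, ordered by list median (black bar). Red points were called higher in SK-N-AS, blue points lower and grey points not called. Interferon and annexin lists lie to the right and granule, adrenergic and cadherin lists to the left.

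Signalling lists held calls in both directions, though some leaned one way. The share called higher ran from 4.76% (NOTCH) to 43.8% (retinoic acid). The share called lower ran from 6.45% (TGF-beta and BMP) to 23.8% (NOTCH). Over all genes tested it was 12.5% in each direction. Of 29 receptor tyrosine kinase and neurotrophin receptor genes, 6 were called higher and 6 lower. MET, the hepatocyte growth factor receptor, had 550.3, 558 and 647 in SK-N-AS, against 29.6, 31.1 and 29.7 in BE(2)-C (4.03 ± 0.10, 3 of 6 probe sets). PDGFRA had 2096, 1995 and 2069 in SK-N-AS, against 175, 177 and 174 in BE(2)-C (3.34 ± 0.07, 2 of 4 probe sets), and the neurturin receptor GFRA2 differed by 2.53 ± 0.06. ALK, a receptor mutated in some neuroblastomas, had 38.3, 33.4 and 30.7 in SK-N-AS, against 239, 235 and 227 in BE(2)-C (-2.95 ± 0.13), and ROR2, a receptor for WNT5A, had 67.3, 61.1 and 65.2 in SK-N-AS, against 1301, 1217 and 1209 in BE(2)-C (-4.45 ± 0.06). RET averaged 2922 ± 181 in SK-N-AS and 4789 ± 190.2 in BE(2)-C (-0.92 ± 0.05) and was not called. In the RAS and MAPK list 8 of 25 were called higher and 4 lower. The feedback inhibitor SPRY1 had 4056, 3811 and 4285 in SK-N-AS, against 103, 105 and 117 in BE(2)-C (5.01 ± 0.07), DUSP6 differed by 1.75 ± 0.09 and IER3 by 3.64 ± 0.07. The immediate early gene EGR1 had 3623, 3397 and 3820.3 in SK-N-AS, against 14875, 14151 and 12940.2 in BE(2)-C (-2.15 ± 0.06). FOS, another such gene, had 2436, 2569 and 2764 in SK-N-AS, against 7929.5, 7665 and 7514 in BE(2)-C (-1.78 ± 0.05). NF1, the RAS inhibitor, was called higher (2.23 ± 0.13) in only 6 of 21 probe sets.

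In the WNT list 8 of 30 genes were called higher and 6 lower. WNT5A, a ligand of the non-canonical branch, had 1267, 1040.0 and 1107 in SK-N-AS, against 15.4, 13.1 and 17.6 in BE(2)-C (5.93 ± 0.15), opposite to its receptor ROR2. LGR5, a receptor for R-spondins, had 6196, 6703 and 7177 in SK-N-AS, against 1085, 1020.4 and 954 in BE(2)-C (2.51 ± 0.11), and RSPO3 differed by 2.57 ± 0.13. The secreted inhibitors DKK1 and SFRP1 were lower (-2.99 ± 0.05 and -2.54 ± 0.06), while FZD6 was higher (1.71 ± 0.10) and FZD7 lower (-1.44 ± 0.07). Of 31 TGF-beta and BMP genes, 8 were called higher, led by TGFBI (4.50 ± 0.13), the coreceptor TGFBR3 (3.92 ± 0.10) and ID4 (2.47 ± 0.07), and 2 lower, led by BMP2 (-2.36 ± 0.16). Of 21 NOTCH genes, 1 was called higher (JAG1, 1.95 ± 0.11, 2 of 6 probe sets) and 5 lower, among them DLK1, HES6 (-2.11 ± 0.08) and HEY1 (-1.51 ± 0.06, 1 of 2 probe sets). In the retinoic acid list 7 of 16 were called higher and 3 lower. The retinal reductase DHRS3 had 1871, 1741 and 2021 in SK-N-AS, against 44.6, 50.5 and 50.3 in BE(2)-C (5.05 ± 0.10), CRABP2, which carries retinoic acid to the nucleus, differed by 2.90 ± 0.09 and the receptor RARB by 2.06 ± 0.08, and STRA6, the receptor that takes up retinol, was lower (-2.74 ± 0.10).

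Among patterning genes more were called lower than higher. Of 17 HOX genes, 9 were called lower and 2 higher (median -1.05), with HOXC10 (-2.58 ± 0.12), HOXC4 (-2.00 ± 0.09) and HOXD3 (-1.82 ± 0.09) lower and HOXB2 (3.25 ± 0.16) higher. Of 10 SOX genes tested, SOX11 was higher and 5 were lower, led by SOX7 (-4.33 ± 0.11) and SOX2 (-2.98 ± 0.08, 1 of 3 probe sets). Of 30 axon guidance genes, 10 were called lower and 4 higher. SEMA6A had 41.1, 35.9 and 52.4 in SK-N-AS, against 1338, 1218 and 1073 in BE(2)-C (-4.99 ± 0.09), ROBO2 differed by -3.38 ± 0.18 and EFNB2 by -3.27 ± 0.07, while SEMA3E was higher (2.31 ± 0.12). Of 19 ion channel genes, 6 were called lower, led by the sodium channel subunit SCN3B (-5.79 ± 0.12) and the calcium channel subunit CACNA2D2 (-5.46 ± 0.08), and 2 higher, KCNK1 (2.75 ± 0.09) and KCNMB4 (1.87 ± 0.06).

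Oncofetal RNA-binding genes went in both directions. LIN28B, an RNA-binding protein that keeps let-7 precursors from being processed, had 23.6, 27.7 and 31.2 in SK-N-AS, against 1487, 1438 and 1371 in BE(2)-C (-5.86 ± 0.07). IGF2BP1, which stabilises target mRNAs, had 67.1, 74.4 and 71.5 in SK-N-AS, against 1276, 1468 and 1086 in BE(2)-C (-4.34 ± 0.09). Its paralog IGF2BP2 was higher (6.36 ± 0.13), called in 1 of 2 probe sets, and IGF2BP3 averaged 2682 ± 132 in SK-N-AS and 2198 ± 40.5 in BE(2)-C and was not called (0.09 ± 0.06). Of the 12 list members tested, 7 were called lower and 2 higher. Of 13 cancer testis genes, 9 were called higher and 1 lower (median 3.35). CTAG2 had 7502, 6731 and 7626 in SK-N-AS, against 76.1, 74.5 and 78.9 in BE(2)-C (6.35 ± 0.09), and MAGEA11, MAGEB2, MAGEA12 and MAGEC1 differed by 6.11 ± 0.15, 5.97 ± 0.12, 5.64 ± 0.22 and 4.99 ± 0.10. TDRD1, a germline piRNA pathway gene, had 30.4, 35.7 and 33.5 in SK-N-AS, against 896, 771 and 727 in BE(2)-C (-4.75 ± 0.11). The MAGE genes are X-linked paralogs, so some of their probe sets may share signal.

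Surface targets of neuroblastoma therapy went both ways, with 10 of 24 called lower and 6 higher. Of the enzymes that make the ganglioside GD2, B4GALNT1 differed by 0.09 ± 0.08 and was not called, and ST8SIA1 lay below the filter in both lines (both chosen after their values were seen). The stress ligands MICA and MICB were higher (3.93 ± 0.10 and 2.85 ± 0.10) and ULBP1, another ligand of the same NK cell receptor, lower (-3.18 ± 0.19, 1 of 3 probe sets). CD99 had 5237, 5033 and 5779 in SK-N-AS, against 27.5, 38.4 and 29.5 in BE(2)-C, and CD24 had 59.1, 71.7 and 52.4 in SK-N-AS, against 868, 889 and 798 in BE(2)-C (-3.99 ± 0.10). The drug efflux pump ABCB1 had 69.4, 64.6 and 60.7 in SK-N-AS, against 1480.2, 1405 and 1303 in BE(2)-C (-4.61 ± 0.12, 2 of 4 probe sets), and among 17 ABC transporters 3 were called lower and 2 higher.

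Few replication and ribosomal protein genes were called. Of 40 DNA replication and mitosis genes, 0 were called higher and 3 lower (median -0.46), and 5 were higher and 30 lower at an unadjusted p under 0.05. The 3 were GINS2 (-2.97 ± 0.05), CDT1 (-1.75 ± 0.09) and AURKB (-1.57 ± 0.06). CENPA and MCM3 differed by -0.98 ± 0.06 and -0.97 ± 0.05 and were not called. Of 41 cytosolic ribosomal protein genes, limma called 0 in either direction at the fold threshold (median -0.12, against -0.05 over all genes). At an unadjusted p under 0.05, 6 were higher and 21 lower, and on the deposited scale 1 was called higher. Over all genes tested, 34.9% were higher and 40.3% lower in limma by the adjusted p alone. Of 34 ribosome biogenesis genes, 3 were called higher and 3 lower, among them LYAR (1.36 ± 0.06) and DDX10 (-1.44 ± 0.06). Cyclin D1, CCND1, had 2006, 1979 and 2122 in SK-N-AS, against 6418, 6103 and 5905 in BE(2)-C (-1.79 ± 0.05), and the CDK inhibitors CDKN2B (3.05 ± 0.12), CDKN1C (2.87 ± 0.15) and CDKN2A (1.52 ± 0.07) were higher. CDK4, MDM2 and TERT differed by 0.07 ± 0.06, 0.30 ± 0.07 and -0.08 ± 0.09, with none called. Of 26 polycomb and DNA methylation genes, 2 were called higher, CBX7 (2.15 ± 0.08) and PHC2 (1.51 ± 0.09), and 3 lower, among them DNMT3A (-2.18 ± 0.20) and SUZ12 (-1.44 ± 0.07).

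The metabolic lists held about the same share of calls as all genes (25.1%). LDHA, the lactate dehydrogenase subunit of glycolytic tissue, had 19396, 18537 and 20661 in SK-N-AS, against 955, 917 and 927 in BE(2)-C (4.18 ± 0.04, 4 of 4 probe sets). The other lines, looked up after the values were seen, had 5589 in SH-SY5Y, 8173 in NGP and 6502 in KELLY, so BE(2)-C was the lowest of the 5. In the glycolysis list 4 of 23 were called higher and 2 lower, and PFKP differed by 1.81 ± 0.07. Of 30 serine, one-carbon and nucleotide genes, 0 were called higher and 8 lower (median -0.35), and 4 were higher and 22 lower at an unadjusted p under 0.05. PHGDH, the first enzyme of serine synthesis, had 1154, 1098 and 1161 in SK-N-AS, against 5989, 5854 and 5366 in BE(2)-C (-2.53 ± 0.08), the mitochondrial folate enzyme MTHFD1L differed by -2.63 ± 0.07, PSAT1 by -1.46 ± 0.07 in 8 of 8 probe sets, and asparagine synthetase, ASNS, by -1.45 ± 0.06. NQO1, a quinone reductase, had 5114, 4836 and 5268 in SK-N-AS, against 1023, 946 and 909 in BE(2)-C (2.20 ± 0.06), and 3 of 23 iron and glutathione genes were called in each direction. Of 20 cholesterol genes, 1 was called higher (ABCA1, 2.08 ± 0.13, 1 of 3 probe sets) and 3 lower.

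Where the 3 other lines stood depended on the scale. SK-N-AS and BE(2)-C had the brightest arrays of the series. The array median over all probe sets was 120.7 to 126.4 units in SK-N-AS and 102.2 to 102.8 in BE(2)-C. It was 51.9 to 57.2 in SH-SY5Y, 73.4 to 78.7 in NGP and 66.7 to 69.3 in KELLY. Centring on the median tested gene removes such a difference between arrays, and the deposited intensities keep it. Its cause was not tested. On centred arrays, of the 1592 genes called higher, SK-N-AS had the highest mean of the 5 lines in 1269 (79.7%) and BE(2)-C the lowest in 915 (57.5%). Of the 1595 called lower, SK-N-AS was lowest in 1349 (84.6%) and BE(2)-C highest in 706 (44.3%). On the deposited intensities, an order looked at after the values were seen, SK-N-AS was highest in 1499 (94.2%) and BE(2)-C lowest in 194 (12.2%) of the genes called higher. For those called lower, SK-N-AS was lowest in 620 (38.9%) and BE(2)-C highest in 1261 (79.1%). On centred arrays SK-N-AS alone stood apart from the other 4 lines by at least 1 log2 unit in 684 of the higher and 674 of the lower genes, BE(2)-C alone in 150 and 108, and neither in 728 and 780. On the deposited intensities the same counts were 1288 and 219 for SK-N-AS alone, 49 and 497 for BE(2)-C alone, and 237 and 826 for neither. No statement on which line stands apart therefore holds for all genes on both scales. These counts compare means that share the SK-N-AS and BE(2)-C arrays with the calls and carry no test. AMIGO2 was high in SK-N-AS alone on either scale, with deposited means of 13.2 in SH-SY5Y, 18.4 in NGP and 15.6 in KELLY. KRT18 had 32.7 in SH-SY5Y, 38.2 in NGP and 40.8 in KELLY, and IFI16 had 17.3 in SH-SY5Y, 18.7 in NGP and 21.6 in KELLY, all below the filter. C7 was high in BE(2)-C and had 2849.9 in SH-SY5Y, 28.7 in NGP and 23.8 in KELLY, and B3GALNT1 had 531 in SH-SY5Y, 19.99 in NGP and 16.9 in KELLY. SK-N-AS, at 26.9, was thus not the lowest line for B3GALNT1 on the deposited scale. A few further genes were chosen after their values were seen. YAP1 had 21.1 in SH-SY5Y, 22.2 in NGP and 24.5 in KELLY, and TDRD1 had 24.7 in SH-SY5Y, 31.0 in NGP and 26.7 in KELLY. MYC was high in SK-N-AS and SH-SY5Y, with 1746 in SH-SY5Y, 31.6 in NGP and 30.2 in KELLY.

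**Figure D4:**
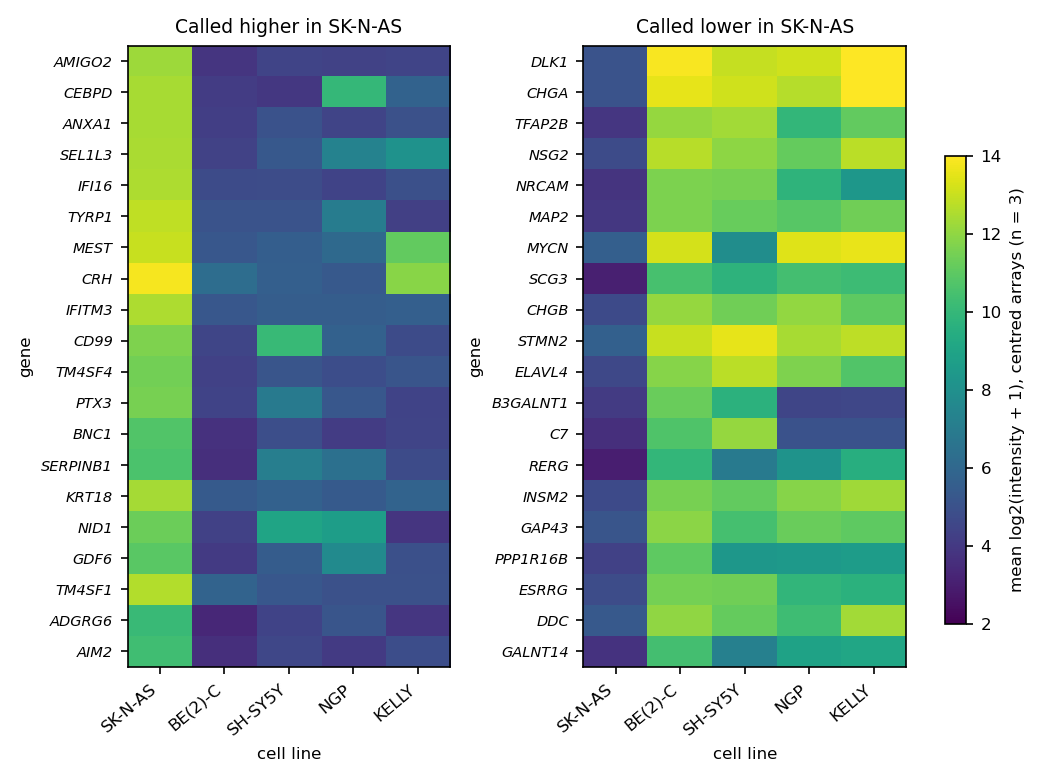
Mean log2(intensity + 1) on centred arrays (colour, n = 3 arrays per line) of the 20 genes with the greatest differences in each direction, in SK-N-AS, BE(2)-C and the 3 other lines. On this scale SK-N-AS has the highest mean of the 5 lines for each gene on the left and the lowest for each gene on the right, while C7 and B3GALNT1 are also low in NGP and KELLY.

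Differences were not even along the chromosomes. On chromosome 8, 25.2% of 460 tested genes were called higher (median 0.47), and on chromosome 18, 22.9% of 179. On chromosome 17, 16.7% of 761 were called lower (median -0.28). Chromosome 11 changed direction along its length. The 480 tested genes before PPFIA1 had a median of 0.34, with 21.0% called higher and 7.08% lower. The 279 genes from PPFIA1 to B3GAT1 at the end had a median of -0.87, with 4.3% called higher and 42.3% lower. Against the mean of the 3 other lines on centred arrays, that stretch had a median of -0.48 in SK-N-AS and 0.31 in BE(2)-C. Its 2 ends differed in this. From PPFIA1 to RAB38 (90 genes) the median was -0.74 in SK-N-AS and -0.02 in BE(2)-C. From DLG2 to B3GAT1 (201 genes, overlapping the first) it was -0.35 in SK-N-AS and 0.47 in BE(2)-C. There the median level on centred arrays was as low in NGP (7.42) as in SK-N-AS (7.46). It was 7.78 in KELLY, 8.17 in SH-SY5Y and 8.44 in BE(2)-C. CADM1, NCAM1, SCN3B and DDX10, all called lower, lie inside the whole stretch from PPFIA1 to B3GAT1. YAP1 is among the 12 genes of that stretch that were called higher. On chromosome 17, the 57 genes from SLC46A1 to NLE1 had a median of -0.81, with 21 called lower and 2 higher, and -0.77 in SK-N-AS but -0.04 in BE(2)-C against the other lines. On chromosome 8, the 55 genes from EIF3E to PHF20L1 had a median of 0.87. DNA copy number was not analysed here, and these stretches were chosen after the values were seen.

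A further 2 stretches, also chosen after the values were seen, held gene families. The 15 genes from CCN1 to GBP4 on chromosome 1 were the most extreme window of a longer run. Of these genes, 11 were called higher (median 1.78), against 18.4% of all tested genes on that chromosome. They include the guanylate-binding protein genes GBP1 (5.11), GBP3 (4.63), GBP2 (4.08), GBP4 (3.54) and GBP7 (3.33), interferon-induced paralogs that lie side by side and may share probe signal. On chromosome 19, 10.2% of tested genes were called lower. Of its 20 tested genes from ZNF506 to ZNF254, all of the ZNF family, 19 were called lower (median -2.15). Against the other lines the median was -2.15 in SK-N-AS and 0.14 in BE(2)-C. These zinc finger genes are paralogs and shared signal between their probe sets was not tested, so the number of separately measured genes is uncertain.

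**Figure D5:**
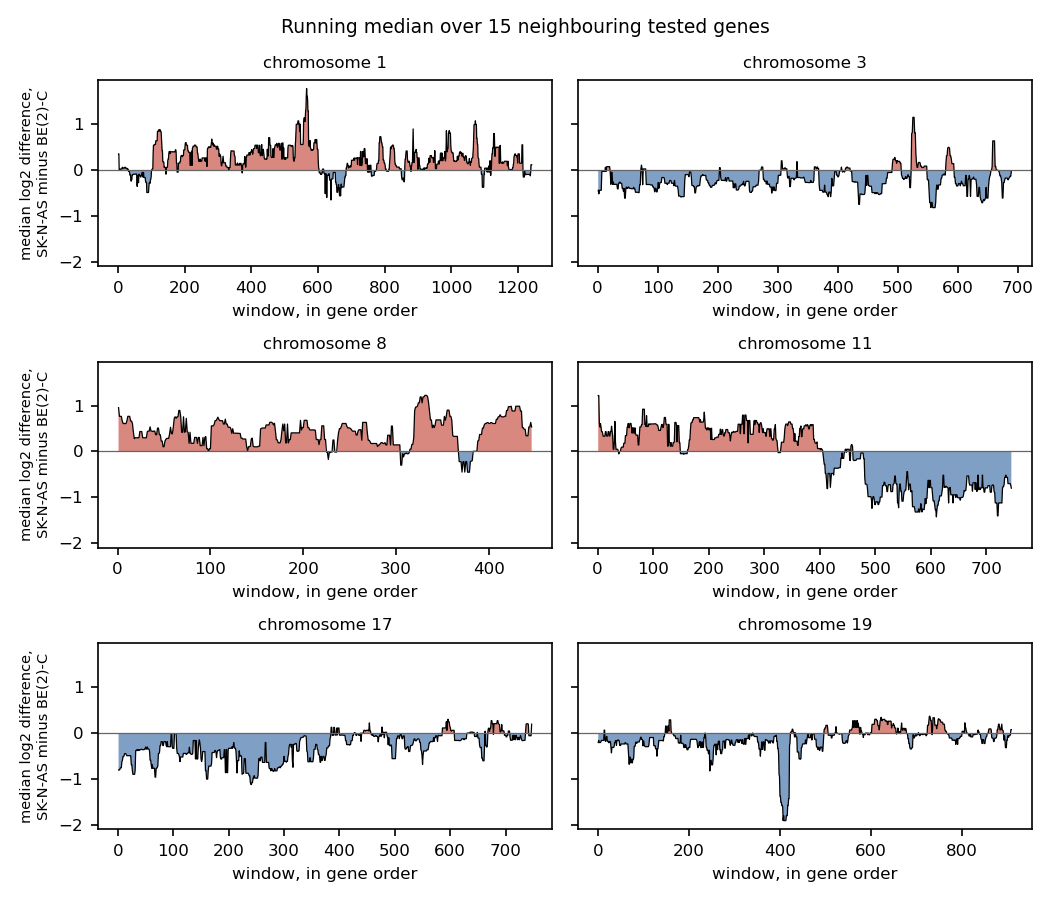
Running median of the log2 difference (SK-N-AS minus BE(2)-C, centred arrays) over windows of 15 neighbouring tested genes, by gene order, on 6 chromosomes. Chromosome 8 lies mostly above 0, chromosome 11 turns from above to below 0, and chromosome 19 has a narrow dip at the zinc finger genes.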

How the data were processed

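Total RNA of 15 arrays (5 lines, 3 arrays each) was measured on a 3' expression array with 49494 probe sets. The authors' deposited values are probe set intensities on a linear scale, and MAS5 is named in the submitters' processing notes, without a version. Its scaling is not given in the sources used here. Of the probe sets, 45277 pair with 1 gene, 1333 with several and 2682 with none, and 202 are controls, of which 100 are ERCC probe sets. The brightest probe set of a gene stood for it, which gave 18244 genes. Genes whose brightest line had a mean no lower than the overall median value (80.6 intensity units, 6.35 on the log2 scale) were kept, which left 12721, of which 12712 are in the RefSeq gene table.

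Values were taken as log2(intensity + 1) and each array was centred on its median tested gene. A fold change on this scale understates the change of dim genes. limma 3.58.1 in R 4.3.3 fitted 1 mean per line over all 15 arrays, with an intensity trend in the prior variance, and the contrast was SK-N-AS minus BE(2)-C. Calls required both a log2 difference of at least 1 and a p, adjusted by Benjamini-Hochberg over all 12721 genes, under 0.05. Tested on simulated data for this comparison, with 200 of 12721 genes changed, the fit recovered 96% at a log2 change of 1.2, 98% at 1.5 and 100% at 2 and at 3, and called 0 unchanged genes. Far fewer genes were changed there than the 25.1% called here, and the fold limit keeps unchanged genes from being called. The simulation therefore does not measure false calls in these data.

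Named genes are the 20 called in each direction with the greatest difference, up to 5 called members per direction and up to 4 uncalled members of each gene list, and a fixed set of neuroblastoma genes and lineage markers (NCAM1 and PHOX2A are named as markers of the cell type check). Genes outside this rule were REST, MAOB, CDH2, IGF2BP3, ST8SIA1, B4GALNT1 and OAS1 to OAS3, which were chosen after their values were seen, and those named for a promoter motif or a place on a chromosome. The comparison, the 48 gene lists (955 tested genes) and the named genes were chosen with earlier results of these data known, so no list is independent evidence of its direction. Promoters are the 250 bases before the start of a gene in the RefSeq table of GRCh38.p14. The number of arrays limits the precision. Alternatives covered the scaling, the pseudocount, the filter, the probe set of a gene, the arrays and prior in the fit, a replicate block and each array left out.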

Additional observations from a re-analysis of the deposited data

How the results depend on the processing

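The counts of calls stayed within 1.5 times those reported under all 17 alternatives and no named gene reversed. Leaving out 1 array at a time gave 1584 to 1601 higher and 1586 to 1609 lower calls. The number of higher and of lower calls was 2226 and 1117 with ERCC centring, 1523 and 1477 with quantile normalization, 1490 and 1504 with a pseudocount of 16, 1572 and 1771 with no filter, 1238 and 1069 with a filter at the 75th percentile, 1310 and 1275 with probe sets averaged per gene, and 1405 and 1401 without the _s_at and _x_at probe sets. The fit on the 6 arrays alone and the fit with no intensity trend both gave 1592 and 1595, since they leave the differences as they are and the fold limit set the calls. The replicate block also gave 1592 and 1595, but same-numbered arrays did not deviate together (correlations of -0.05, 0.01 and -0.04), so the numbers do not pair the arrays. The RNA level difference was 0.205 with all ERCC probe sets instead of the brighter 33, 0.343 with all genes, and 0.253 to 0.351 with 1 array left out. The cause was not tested. Of the 319 named genes, 291 were called and 247 of these in every alternative that tested them. Of 48 list medians, taken relative to all genes, 22 moved under quantile normalization, by 0.04 to 0.31, and those of the ribosomal protein and glycolysis lists changed sign, both near 0. The order of the 5 lines moved by over 1.5 times between centred arrays and deposited intensities, as given with it. The deposited scale lost 21 calls, ERCC centring 24 and the mean of probe sets 24, among them HLA-C, JAG1 and EGR3. Signal near the array's background limits the folds of dim genes.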
